A study of Homo sapiens with 28 samples.

Results

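The region described here is the stretch of human chromosome 8 around the MYC gene at 8q24, chr8:127500000-130000000 on the hg18 build, 2.5 Mb long. Its members are all peaks that overlap it in 22 lists of sites bound by a protein or carrying a histone mark in GP5d, a colon adenocarcinoma line long established in culture. They numbered 452 of the 393268 peaks in the lists, and no peak crossed either edge of the window. The rule for membership was position alone. Distances below are given in kb from a MYC position of 128817500, with negative values on the side of lower coordinates. A colon cancer risk enhancer lies near 128482500, 335.0 kb from MYC.

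MYC encodes a transcription factor that drives cell growth and is a central oncogene of colon cancer. It sits in a gene-poor stretch whose inherited cancer risk variants fall in distal enhancers, which act on MYC across long distances through folding of the chromatin fibre. Cohesin is the ring-shaped complex that forms such folds by pulling DNA into loops, NIPBL feeds it onto DNA, and the DNA-binding protein CTCF stops it where it is bound. The protein-coding genes next to MYC in the RefSeq table for GRCh38 are LRATD2 and POU5F1B on the lower side and GSDMC and CYRIB on the upper side. An hg18 annotation was not used here, so no peak was assigned to an exon, intron or promoter.

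The study asked how transcription factor binding depends on cohesin. GP5d cells received 50 nM of siRNA against RAD21, a cohesin subunit, or of a non-targeting siRNA, and were harvested after 72 h. Chromatin immunoprecipitation with sequencing was then made for 11 targets under each siRNA, with 1 library per target and siRNA. The targets were RAD21 and SMC3 (cohesin subunits), NIPBL, CTCF, the histone mark H3K4me1 (found at enhancers and beside promoters) and the transcription factors HNF4A, KLF5, MYC, JUND, REST and RFX2. The other 6 of the 28 libraries were immunoglobulin G (IgG) backgrounds from rabbit, goat and mouse. The authors used those from rabbit and goat as the reference of the peak lists. The libraries named H3K4me1 and MYC carry antibody numbers in the labels that, as far as is generally known, belong to an antibody against histone H3 of any modification and to a mouse antibody where a rabbit one is named. An siRNA tag in the labels also numbers the RAD21 siRNA libraries in a rising series, against their titles, from which the groups were taken.

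Without replicates, no difference between the siRNAs has a replicate check and no test between libraries was made. All intervals are 95% exact (Clopper-Pearson) binomial intervals and cover counting error only. Depth moved with the siRNA. Filtered tags numbered 3629966 to 19926326 in the control siRNA libraries and 1747770 to 15263937 in the RAD21 siRNA libraries, and were fewer under RAD21 siRNA for 9 of 11 targets. The exceptions were MYC, at 1.02 times, and JUND, at 2.02 times its control siRNA depth. The MYC libraries were not alike before filtering. Filtering kept 9603820 of 13545723 tags with the control and 9801218 of 26879136 with the RAD21 siRNA. The rabbit IgG library, the shared reference of the other targets, had 0.46 times as many tags under RAD21 siRNA. The goat IgG library, used for CTCF and RFX2, had 0.841 times. The part that depth had in the differences below was not tested.

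Under control siRNA the window held 274 peaks, led by 84 of H3K4me1, 42 of SMC3, 36 of RAD21, 30 of CTCF and 22 of NIPBL. HNF4A had 19 peaks there, MYC 17, KLF5 8, JUND 7, REST 7 and RFX2 2. Under RAD21 siRNA the same window held 178 peaks, 0.65 times as many, near the ratio of 0.672 over all lists (235159 and 158109 peaks). H3K4me1 then had 65, CTCF 22, RAD21 13, HNF4A 12, SMC3 11, MYC 10, NIPBL 9, REST 6, KLF5 3 and RFX2 1. These 10 targets had fewer peaks under RAD21 siRNA, and JUND, with 26, had more.

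The ratio of RAD21 siRNA to control siRNA peaks in the window was lowest for SMC3 (0.262, against 0.323 over its whole list), RAD21 (0.361 against 0.546), KLF5 (0.375 against 0.229) and NIPBL (0.409 against 0.519). CTCF at 0.733 was level with its whole list at 0.731, and so was HNF4A at 0.632 against 0.637. H3K4me1 stood at 0.774 against 0.877, MYC at 0.588 against 0.535, RFX2 at 0.5 against 0.557 and JUND at 3.71 against 2.63. REST, at 0.857, had fewer peaks in the window and more over its whole list, at 1.07. In the window SMC3 was lowest and JUND highest, and over the whole lists KLF5 was lowest. When both lists of a target were shortened to the same length by strength, the lower count for cohesin ended. Both whole lists then had equal numbers of peaks by construction. This choice takes out any difference in list length, so it cannot show whether cohesin peaks were lost. RAD21 then had 13 window peaks under each siRNA, and SMC3 had 7 with the control and 11 with the RAD21 siRNA. Of the 11 targets, 3 (H3K4me1, HNF4A and REST) then had fewer window peaks under RAD21 siRNA, in place of 10, and MYC had 5 and 10.

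**Figure D1:**
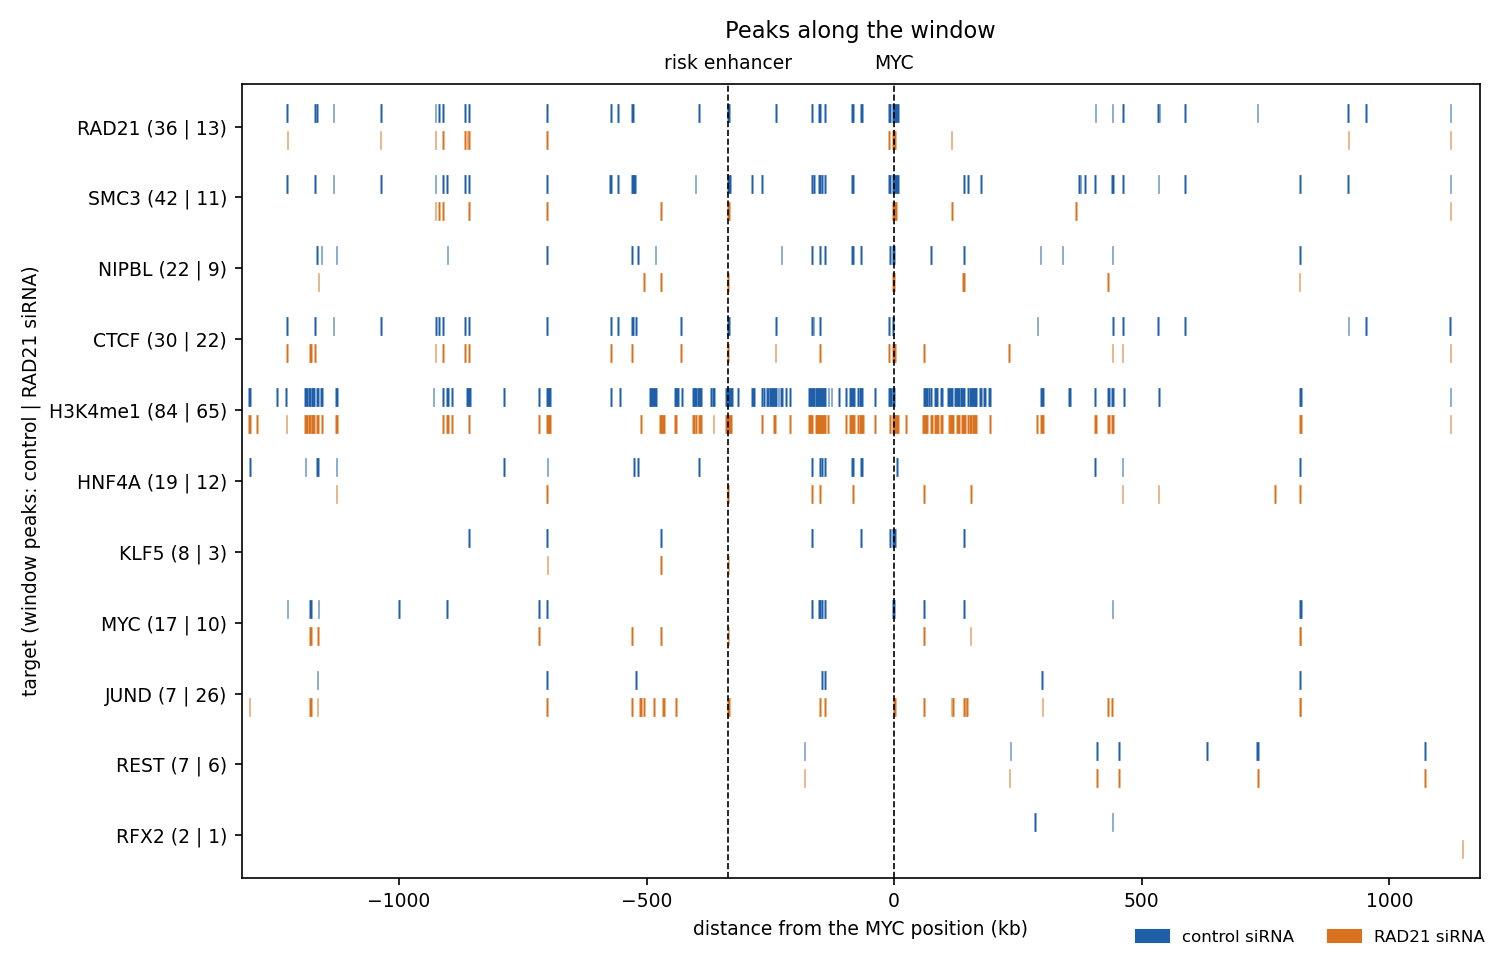
Each bar is a peak, drawn 1 kb wider on either side to be visible, at its distance in kb from the MYC position, with control siRNA in blue above and RAD21 siRNA in orange below for each of the 11 targets. The counts beside each target fall from 36 to 13 for RAD21 and from 42 to 11 for SMC3, while JUND goes from 7 to 26 and REST peaks lie mostly beyond MYC.

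The window was dense in some targets and not in others. Per Mb, and against the mean over the effective genome size in the file headers, H3K4me1 had 33.6 control siRNA peaks in the window and 22.2 over its list, NIPBL 8.8 and 4.25, and HNF4A, a nuclear receptor of intestinal epithelium, 7.6 and 4.04. RAD21, at 14.4 and 13.2, and SMC3, at 16.8 and 14.1, were near their list means, and CTCF, at 12 and 16, was below it. Under control siRNA, cohesin peaks of the window had a lower median strength than their lists, and those of CTCF and H3K4me1 a higher one. Strength is given as the authors' −10 × log10 p of a peak, called the score below, beside its sequenced tags, its fold enrichment over the IgG background and its false discovery rate (FDR). The median score of RAD21 window peaks was 131.83 against 201.96 for the whole list and that of SMC3 107.695 against 180.62, whereas CTCF window peaks had 354.14 against 295.19 and H3K4me1 281.015 against 201.285. Under RAD21 siRNA the CTCF median was below that of its list, at 91.46 against 141.305, as were RAD21 (87.36 against 106.635) and SMC3 (64.62 against 84.365), and H3K4me1 had 183.07 against 173.86.

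RAD21 peaks were found again under RAD21 siRNA, meaning that a peak of the same target overlapped by at least 1 bp, at 11 of 36 window positions, or 30.6% (interval 16.3 to 48.1), where the whole list gave 46.6%. SMC3 peaks were found again at 7 of 42, or 16.7% (6.97 to 31.4), where the whole list gave 28.4%. NIPBL, which loads the ring, was found again at 3 of 22, or 13.6%, against 17.4% of its list. The interval of each contains the share of its list. All 11 RAD21 peaks and all 7 SMC3 peaks that were found again had a lower score under RAD21 siRNA, and all were shorter. The median RAD21 score among them went from 470 to 114 and the median SMC3 score from 418 to 68.6. Peaks found under RAD21 siRNA alone were 2 of 13 for RAD21 (13.7% over its list), 4 of 11 for SMC3 (11.7%) and 6 of 9 for NIPBL (66.3%).

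Strength under control siRNA ordered which cohesin peaks came back. All 6 RAD21 window peaks with a score of 400 or more were found again (88.7% over the list), 3 of 7 with 200 to 400 (55.9%), 2 of 11 with 100 to 200 (26.7%) and 0 of 12 with 50 to 100 (9.78%). SMC3 followed the same steps, at 4 of 6, 1 of 5, 2 of 11 and 0 of 20, against 68.1%, 29.9%, 10.7% and 3.96% over its list.

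CTCF separated the cohesin peaks in the same direction. RAD21 peaks that overlapped a CTCF peak were found again at 11 of 26 positions (54.6% of such peaks genome-wide), and those without CTCF at 0 of 10 (9.39% genome-wide). That count of 0 allows a share of up to 30%, the limit that 3 counts give, and its exact interval reaches 30.8%. SMC3 peaks with CTCF were found again at 7 of 24 (34.9% genome-wide) and those without at 0 of 18 (4.29% genome-wide), which allows up to 16.7% by 3 counts and 18.5% by the exact interval. The peaks without CTCF were also the weaker ones, with a median score of 72.77 against 181.815 for RAD21 and 66.015 against 175.695 for SMC3. Those without CTCF lay on H3K4me1 at 9 of 10 RAD21 peaks (64% genome-wide) and 14 of 18 SMC3 peaks (67.8%). Those with CTCF did so at 13 of 26 RAD21 peaks (24.2%) and 13 of 24 SMC3 peaks (25%).

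CTCF itself was found again at 17 of 30 window peaks, or 56.7% (37.4 to 74.5), against 63.1% of its list, and 5 of its 22 RAD21 siRNA peaks had no control siRNA counterpart (12.9% over the list). Of the 17, 16 had a lower score and 11 a lower fold enrichment under RAD21 siRNA, with medians of 439 and 100 for the score and 18.7 and 17.7 for the fold. The CTCF library had 0.346 times its control siRNA depth. The strongest CTCF peak of the window, chr8:128287499-128290437 at −529 kb, had 202 tags and a score of 1258.87 under control siRNA and 52 tags and 169.84 under RAD21 siRNA. The strongest that was not found again, chr8:128115591-128117756 at −701 kb, had 154 tags and a score of 1117.06.

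CTCF, RAD21 and SMC3 coincided under control siRNA at 23 of the 30 CTCF peaks, against 63% of CTCF peaks genome-wide. At these 23 sites CTCF was found again at 15 (65.2%, interval 42.7 to 83.6, against 78.1% genome-wide), RAD21 at 11 (47.8%, 26.8 to 69.4, against 57.8%) and SMC3 at 7 (30.4%, 13.2 to 52.9, against 37.9%). The genome-wide order of the 3 proteins, CTCF over RAD21 over SMC3, thus held in the window, and each window interval contains the genome-wide share. All 3 proteins were found again at 5 sites, CTCF with RAD21 at 3, CTCF alone at 6, RAD21 alone at 2, CTCF with SMC3 at 1, RAD21 with SMC3 at 1 and none of them at 5.

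The 5 sites that kept a peak of all 3 proteins lay at −926, −911, −859, −1.98 and 1123 kb. At the first, chr8:127890616-127892465, RAD21 had a score of 969.19 with the control and 160.51 with the RAD21 siRNA. The second, chr8:127905017-127906887, held the strongest RAD21 and SMC3 peaks of the window, RAD21 with 191 tags and a score of 1149.22 and SMC3 with 177 tags and 818.18. Under RAD21 siRNA they had 62 tags and 190.39, and 29 tags and 56.98. Beside MYC, the SMC3 score of 236.97 and the RAD21 score of 403.48 under RAD21 siRNA were above those at −911 kb. With only peaks of FDR under 5%, or of a score of at least 100, in both lists, 2 of the sites kept all 3 proteins.

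**Figure D2:**
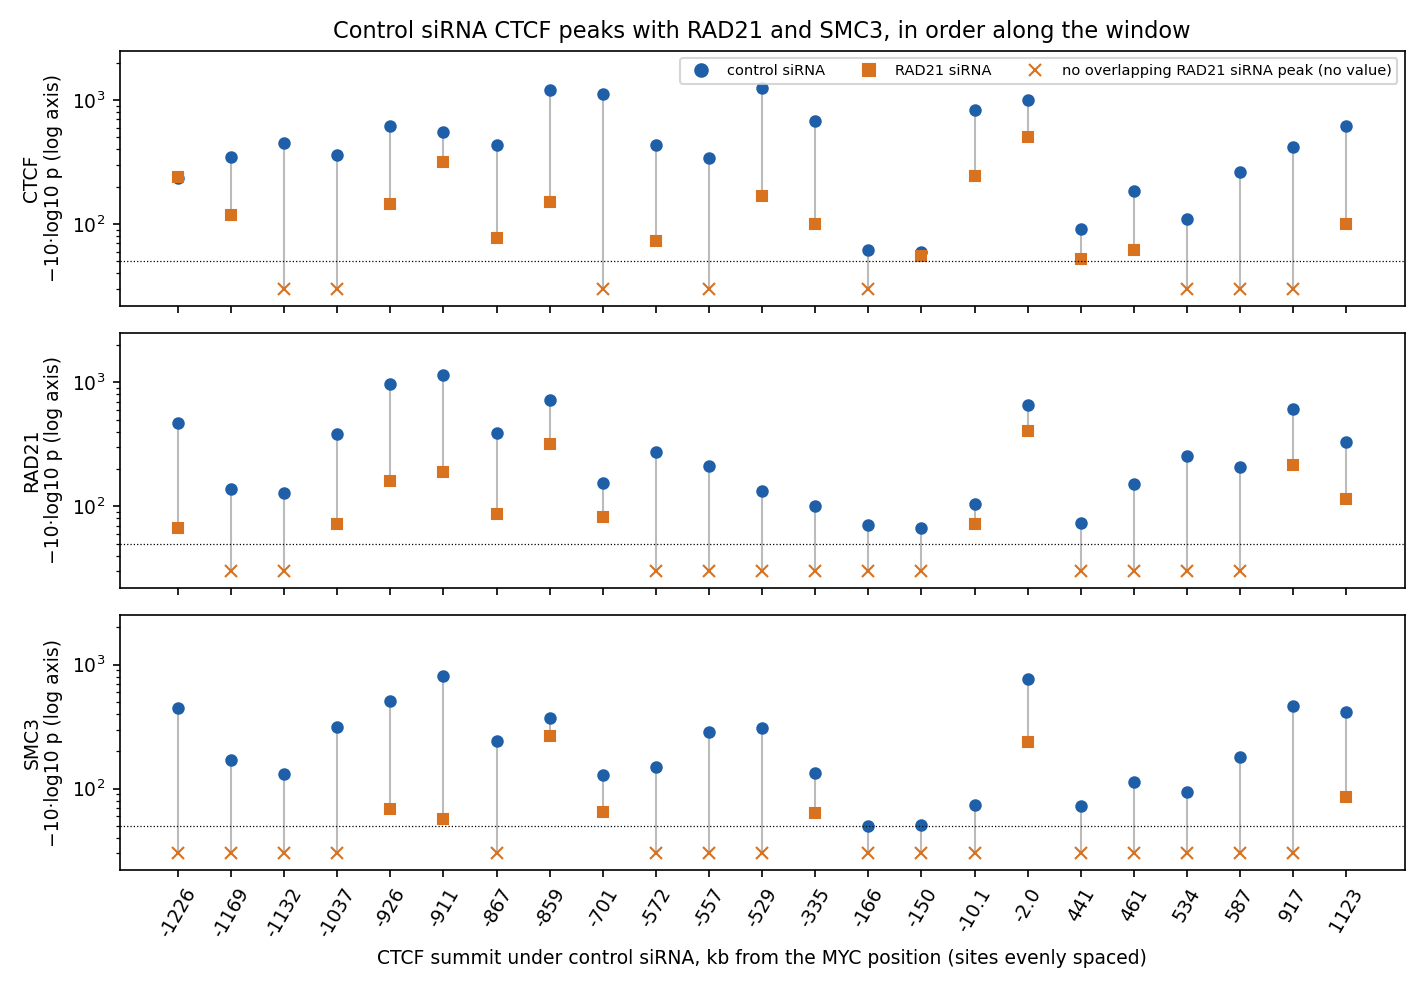
For the 23 control siRNA CTCF peaks that overlapped RAD21 and SMC3, the −10 × log10 p on a log axis is shown for each protein under control siRNA (blue circles) and RAD21 siRNA (orange squares), in order along the window. Crosses, placed below the dotted line at the lowest score of 50.0, mark sites with no overlapping peak, 8 for CTCF, 12 for RAD21 and 16 for SMC3. RAD21 crosses fill the stretch from −572 to −150 kb.

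At MYC, the peaks formed a locus (peaks of any list joined where they lay within 1000 bp) at chr8:128813325-128825709. Under control siRNA it held 8 targets: RAD21, SMC3, NIPBL, CTCF, H3K4me1, HNF4A, KLF5 and MYC. Under RAD21 siRNA it held 6: RAD21, SMC3, NIPBL, CTCF, H3K4me1 and JUND. HNF4A, KLF5 and MYC were thus missing and JUND was added. Over the whole lists, 33.4% of HNF4A, 10.2% of KLF5 and 28.9% of MYC control siRNA peaks were found again. Of JUND peaks under RAD21 siRNA, 86.7% had no control siRNA counterpart.

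The summits of RAD21, SMC3 and CTCF at MYC lay within 82 bp of each other under both siRNAs, from −2046 to −1964 bp from the MYC position. RAD21 had 723 tags over 10468 bp under control siRNA and 194 tags over 6200 bp under RAD21 siRNA, with scores of 663.04 and 403.48. SMC3 had 1035 tags over 11933 bp and then 177 over 7066 bp, with scores of 766.46 and 236.97. Both cohesin peaks were the longest of the window in their lists under each siRNA. CTCF had 202 tags and a score of 1002.38 under control siRNA and 83 tags and 507.78 under RAD21 siRNA, while its fold enrichment was 38.23 and 48.63. Scaled to 1000000 filtered tags, CTCF had 16.8 and 19.9 tags there, RAD21 49.1 and 21.4 and SMC3 60.4 and 19.4. These peaks differed in length between the siRNAs, and the CTCF peak was 2569 bp long with the control and 3837 bp with the RAD21 siRNA. Per kb of the called peak, CTCF had 6.54 and 5.19 scaled tags, RAD21 4.69 and 3.45 and SMC3 5.06 and 2.75, lower under RAD21 siRNA for all 3.

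The MYC protein had a peak over its own gene's position, chr8:128814727-128819119, with 178 tags, a score of 241.66 and a summit at −0.468 kb under control siRNA. KLF5, a factor of proliferating crypt cells, peaked beside it at −0.388 kb with 139 tags and a score of 135.82. Neither target had a peak there under RAD21 siRNA, when the nearest summits were 59.2 kb away for MYC and −335 kb away, at the risk enhancer, for KLF5. These were the strongest window peaks of both factors that were not found within 1000 bp under RAD21 siRNA. Over the whole lists, 14.5% of KLF5 control siRNA peaks with a score of 100 to 200 were found again. For MYC peaks with a score of 200 to 400 the share was 58.3%. JUND, an AP-1 subunit, was called over 5855 bp across the MYC position under RAD21 siRNA with 210 tags, but with a fold enrichment of 3.07 and a score of 53.64. H3K4me1 covered 4161 bp of the locus under control siRNA, ending before the MYC position, and 11603 bp across it under RAD21 siRNA, with 287 and 344 tags.

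The risk enhancer belonged to a locus at chr8:128477149-128491196. Under control siRNA it held 4 targets, RAD21, SMC3, CTCF and H3K4me1. Under RAD21 siRNA it held 8: SMC3, CTCF and H3K4me1 again, and NIPBL, HNF4A, KLF5, MYC and JUND in addition, with no RAD21 peak. All the added targets had the same rabbit IgG library of each siRNA as their reference. The part of that reference in the increase was not tested. An increase of 4 or more targets occurred at 2 of the 104 loci of the window, and at 0.757% of loci genome-wide. The increase depended on which peaks were taken. With peaks of FDR under 5% the locus went from 4 targets to 3 (CTCF, H3K4me1 and HNF4A), with a score of at least 100 it held 4 under either siRNA, and with lists shortened to the same length it went from 2 to 8. The FDR choice shortened the lists unequally. It kept every peak of the MYC control siRNA list and no peak of the NIPBL and JUND control siRNA lists. In the window it left MYC 17 peaks with the control and 1 with the RAD21 siRNA, and SMC3 32 and 2.

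Of the 5 targets added at the enhancer, HNF4A had the lowest FDR and the highest fold enrichment. Its peak was chr8:128481798-128483138, with 35 tags, a fold enrichment of 14.37, a score of 156.49 and an FDR of 0.08%, and it was the strongest HNF4A window peak without a control siRNA counterpart, from a library of 0.558 times the depth. JUND had 97 tags, a score of 166.17 and an FDR of 6.19%. MYC had 32 tags and a score of 67.57 (FDR 23.13%), NIPBL 23 tags and 50.95 (27.99%) and KLF5 11 tags and 50.61 (35.64%), close to the lowest score of the lists. The summits of these 5 peaks fell between −30 and 69 bp from the enhancer position of 128482500, which was given with results of these data known.

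Cohesin and CTCF summits at the enhancer lay beside those of the added targets. Their 5 summits under both siRNAs lay between −285 and −225 bp, so that 195 bp separated them from the nearest factor summit. CTCF had 216 tags and a score of 674.1 under control siRNA and 23 tags and 100.44 under RAD21 siRNA, with fold enrichments of 25.59 and 19.04. RAD21 had 301 tags and a score of 100.72 under control siRNA. Its tags exceeded those of 98.5% of its list and its fold enrichment of 6.02 that of 8.45%. SMC3 had 388 tags at a fold of 6. The SMC3 peak under RAD21 siRNA had 70 tags, a fold of 5.75 and a score of 64. H3K4me1 had here its strongest peak of the window, 1328 tags over 13459 bp with a score of 2670.94, and 539 tags over 12297 bp with 1482.33 under RAD21 siRNA.

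**Figure D3:**
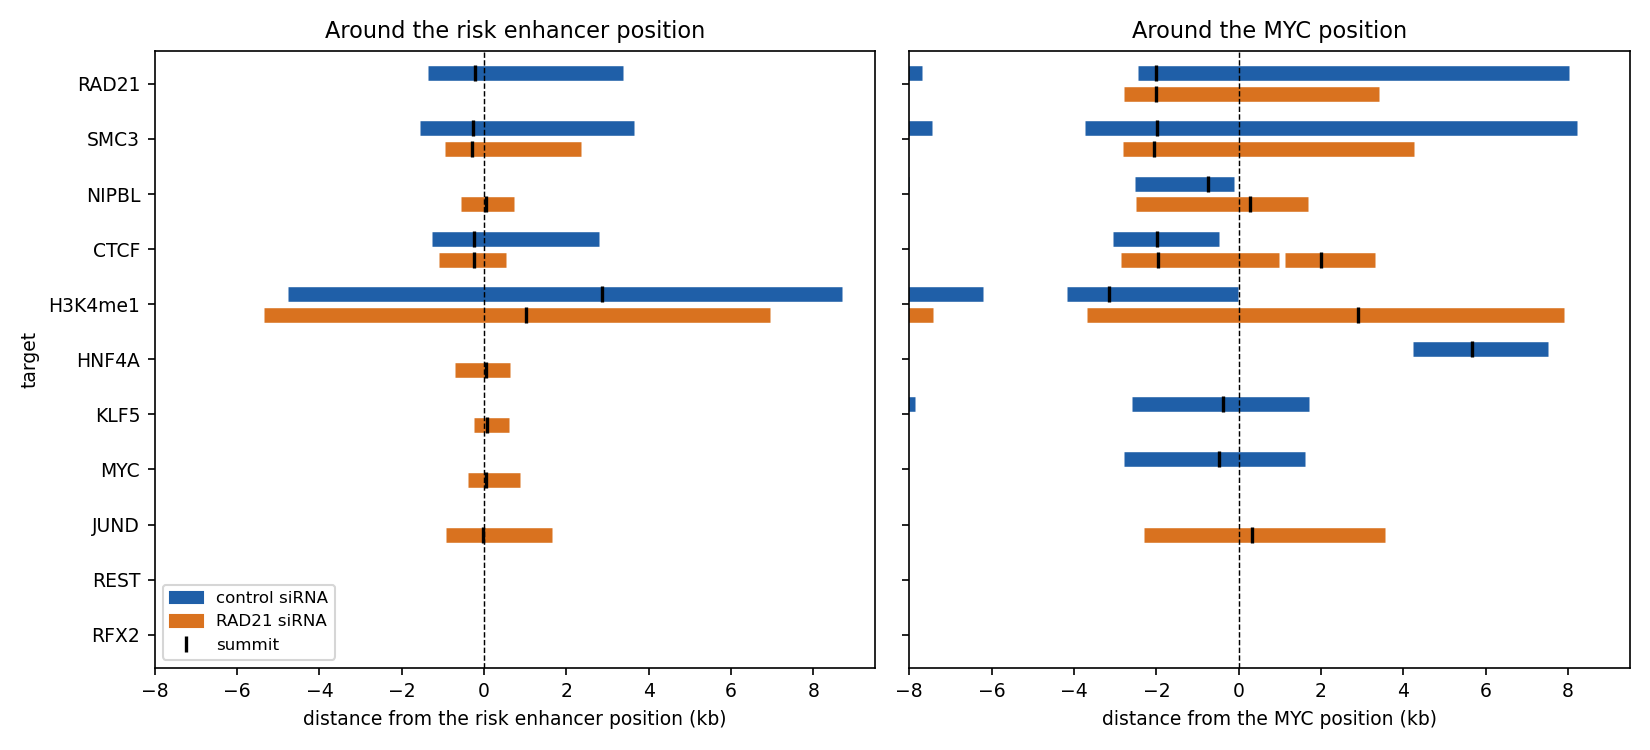
Peaks around the risk enhancer position (left) and the MYC position (right) are drawn as bars from start to end in kb from each position, control siRNA in blue and RAD21 siRNA in orange, with summits as black marks. At the enhancer the summits of the 5 added targets lie within 69 bp of the position. At MYC the RAD21, SMC3 and CTCF summits line up near −2 kb under both siRNAs.

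The other locus that held more targets by 4 or more lay at chr8:128344439-128354694, −473 to −463 kb from MYC. KLF5 alone was present under control siRNA, with 146 tags and a score of 167.86, and was found again with 26 tags and 91.69. SMC3, NIPBL, H3K4me1, MYC and JUND, all called against the same rabbit IgG library of each siRNA, were added under RAD21 siRNA. For SMC3, NIPBL, H3K4me1 and MYC these were the strongest window peaks without a control siRNA counterpart, with scores of 78.06, 102.87, 494.2 and 92.12. The FDR was 0.24% for H3K4me1, 6.19% for JUND, 6.5% for NIPBL, 13.08% for SMC3 and 23.13% for MYC. With peaks of FDR under 5% the locus went from 1 target to 2, and with scores of at least 100 from 1 to 3, so the increase of 4 or more ended under both choices. With lists shortened to the same length it still went from 1 to 6. The H3K4me1 peak there, 381 tags over 10.3 kb, followed 7.43 kb after chr8:128323960-128337010, the strongest H3K4me1 peak that was not found again, with 1212 tags over 13.1 kb and a score of 1472.91 under control siRNA. A broad H3K4me1 peak was thus called on 1 side of this gap under control siRNA and on the other under RAD21 siRNA.

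Peaks of all lists joined into 104 loci in the window, of 97017 genome-wide. Control siRNA peaks of 5 or more targets met at 15 of them, 14.4%, against 8.65% genome-wide, and RAD21 siRNA peaks at 7, 6.73%, against 4.74%. All 15 had fewer targets under RAD21 siRNA, as did 83.6% of such loci genome-wide, but they were chosen for many targets under control siRNA, which favours that direction. Of the 7 loci chosen the other way, by 5 or more targets under RAD21 siRNA, 3 had more targets than under control siRNA and 4 had fewer, where 62.4% of such loci genome-wide had more. Among all 104 loci, 66 (63.5%, against 57.2% genome-wide) had fewer targets under RAD21 siRNA, 15 (14.4%, against 17.2%) had more and 23 had the same number.

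The locus of the most targets under control siRNA, 9, was chr8:128114648-128124199 at −703 to −693 kb, with every target but REST and RFX2. Under RAD21 siRNA it held 6, without NIPBL, CTCF and MYC. KLF5 (270.51 and 167.75) had its strongest control siRNA window peak there, and JUND had its strongest RAD21 siRNA window peak, with 51 tags and a score of 82.53 under control siRNA and 102 tags and 293.55 under RAD21 siRNA. H3K4me1 there had scores of 743.35 and 1261.97, while 45 of the 57 H3K4me1 window peaks that were found again had a lower score under RAD21 siRNA.

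A pair of loci between the enhancer and MYC held 8 targets each under control siRNA. At chr8:128644052-128656583, −173 kb, these were RAD21, SMC3, NIPBL, CTCF, H3K4me1, HNF4A, KLF5 and MYC, of which H3K4me1 and HNF4A had a peak under RAD21 siRNA. At chr8:128657645-128679549, −160 kb, CTCF, H3K4me1, HNF4A and JUND had peaks under both siRNAs, and RAD21, SMC3, NIPBL and MYC under control siRNA alone. Farther out, chr8:127634420-127655800 at −1183 kb went from 8 targets to 5 (NIPBL, CTCF, H3K4me1, MYC and JUND), and chr8:129256907-129259761 at 439 kb from 7 to 3 (CTCF, H3K4me1 and JUND, which was not among the 7). Of the loci with 6 targets, chr8:128286500-128297843 at −531 kb and chr8:128806432-128811300 at −11.1 kb went to 3. The locus chr8:129635094-129639472 at 818 kb held NIPBL, H3K4me1, HNF4A, MYC and JUND under both siRNAs and SMC3 under control siRNA alone. The count of such loci depended on the strength asked of the peaks: with FDR under 5% it was 9 with the control and 0 with the RAD21 siRNA, and with scores of at least 100 it was 5 and 0.

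Loci of 5 targets were 6 in number. At chr8:128730127-128737694, −87.4 kb, the strongest HNF4A peak of the window had 141 tags and a score of 742.05 under control siRNA and 26 tags and 92.71 under RAD21 siRNA. NIPBL had its strongest window peak in the same place, with 100 tags and a score of 151.72, and it was not found again. H3K4me1 and HNF4A were found there under RAD21 siRNA, and H3K4me1 was the only target left at chr8:128747724-128754619, −69.8 kb. At chr8:129222249-129227815, 405 kb, H3K4me1 and REST were found under both siRNAs and RAD21, SMC3 and HNF4A under control siRNA alone.

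**Figure D4:**
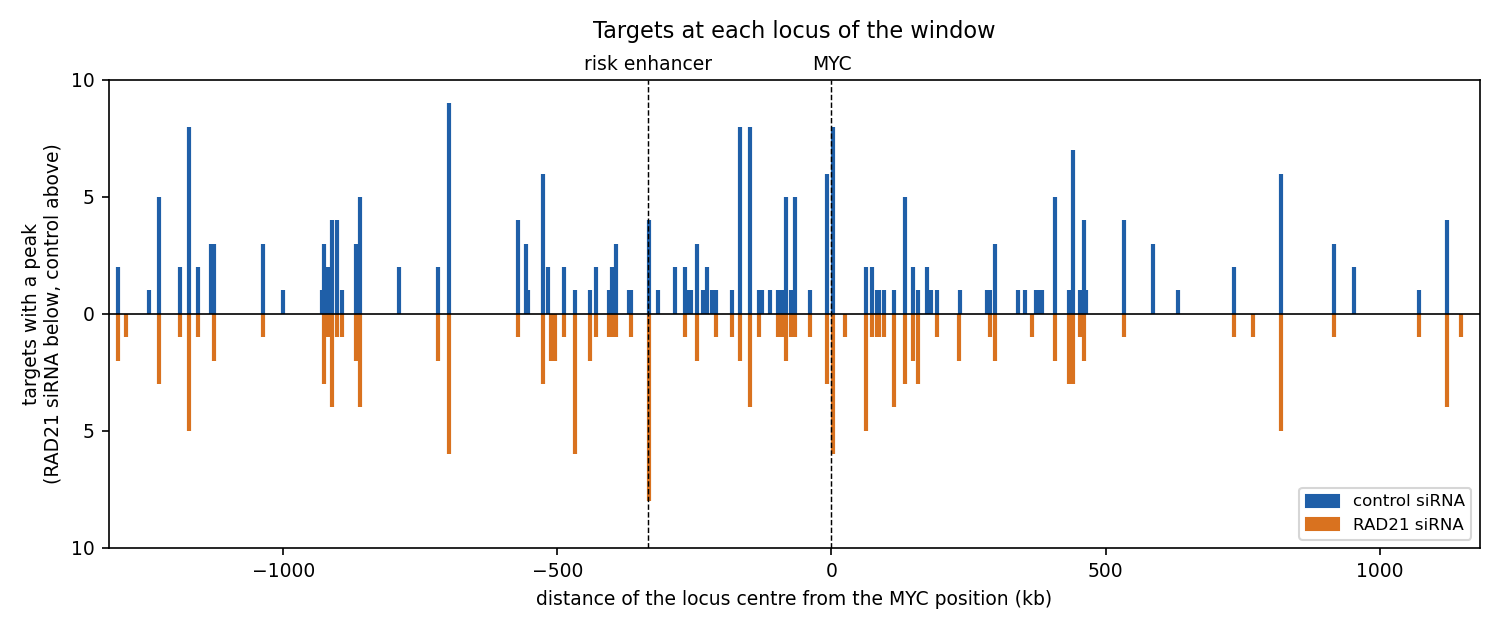
The number of targets with a peak at each of the 104 loci is drawn upward for control siRNA (blue) and downward for RAD21 siRNA (orange) against the distance of the locus centre from the MYC position in kb. The longest upward line, 9 targets, stands at about −700 kb, and the longest downward line, 8 targets, at the risk enhancer.

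Peaks were placed in 3 parts of the window by their summits, with cuts at the enhancer and MYC positions. The stretch from the enhancer to MYC was the densest of the 3 parts and had the lowest ratio of RAD21 siRNA to control siRNA peaks. It held 82 control siRNA peaks, 245 per Mb, and 33 under RAD21 siRNA, 98.5 per Mb. The part before the enhancer held 109 and 75, or 111 and 76.3 per Mb, and the part after MYC 83 and 70, or 70.2 and 59.2 per Mb. Between enhancer and MYC, SMC3 had 12 and 1 peaks, RAD21 10 and 2, NIPBL 8 and 1, MYC 6 and 1, HNF4A 6 and 4, CTCF 6 and 4 and H3K4me1 27 and 16. The NIPBL and MYC peaks under RAD21 siRNA were those at the enhancer, with summits 48 and 47 bp above its position. So was 1 of the HNF4A peaks, at 54 bp. The SMC3 peak, and 1 each of RAD21 and CTCF, were those at MYC. Cohesin and CTCF summits at the enhancer, from −285 to −225 bp, counted as before it. RAD21 and SMC3 had no peak from chr8:128484862 to chr8:128806786 under RAD21 siRNA, a stretch of 322 kb. With lists shortened to the same length by strength, the ratio between enhancer and MYC was 0.667 in place of 0.402.

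H3K4me1 peaks covered 339 kb of the window under control siRNA, 13.6% of it against 6.84% over the list, and 261 kb under RAD21 siRNA, 10.4% against 6.58%. They were found again at 57 of 84 positions, or 67.9% (56.8 to 77.6), against 74.3% of the list, and 5 of 65 were under RAD21 siRNA alone (17.7% over the list). Of those with a score of 400 or more, 29 of 30 were found again (96.7% over the list), and of those from 50 to 100, 5 of 19 (46%). No other target overlapped 41 of the 84 peaks (49.8% over the list) under control siRNA and 37 of the 65 (57%) under RAD21 siRNA. Of the others, SMC3 lay on 24 of the 84 H3K4me1 peaks (21.1% over the list), RAD21 on 20 (18.3%), NIPBL on 18 (15.4%), CTCF on 15 (18.1%), HNF4A on 14 (15.1%) and MYC on 14 (20.4%) under control siRNA. Among the 65 RAD21 siRNA peaks, JUND with 18 was the most frequent partner, as it was over the list (20.9%), and RAD21 lay on 7 (12%). With peaks of FDR under 5%, H3K4me1 had 58 window peaks with the control and 65 with the RAD21 siRNA, so the direction of its count turned. The count turned in the same way over the whole lists, so the turn was not particular to the window. All 53581 peaks of the H3K4me1 list under RAD21 siRNA had an FDR under 5%. This choice thus shortened the control siRNA list alone.

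RAD21, SMC3 and CTCF peaks lay on H3K4me1 at a higher share in the window than over their lists, and REST peaks did not. For RAD21 this was 22 of 36 control siRNA peaks, 61.1% (43.5 to 76.9), against 31.2% of the list. It was 27 of 42 for SMC3, 64.3% (48 to 78.4), against 34.1%, and 15 of 30 for CTCF, 50% (31.3 to 68.7), against 25.4%. H3K4me1 itself covered more of the window than of the genome, as given above, and the part of that in these shares was not tested. The targets that lay mostly on H3K4me1 over their lists did so here too, at 18 of 22 peaks for NIPBL (83.2% over the list), 15 of 19 for HNF4A (87.8%), 7 of 8 for KLF5 (78.2%), 15 of 17 for MYC (86.1%) and 6 of 7 for JUND (80.5%). RFX2 lay on it at 1 of 2 (43.6%).

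HNF4A was found again at 7 of 19 window peaks (36.8%, against 33.4% of its list), KLF5 at 2 of 8 (25%, against 10.2%) and MYC at 5 of 17 (29.4%, against 28.9%). Peaks under RAD21 siRNA alone were 5 of 12 for HNF4A (47.3% over its list), 1 of 3 for KLF5 (54.9%), and 4 of 10 for MYC (45.1%). The shares of HNF4A and MYC thus lay near those of their lists. The strongest HNF4A peak not found again, chr8:128676771-128678780 at −140 kb, had 67 tags and a score of 351.3. The strongest MYC peak, chr8:128875904-128878575 at 58.8 kb, had 166 tags and a score of 494.84 under control siRNA and 75 tags and 335.22 under RAD21 siRNA. At that locus CTCF, HNF4A and JUND were added.

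**Figure D5:**
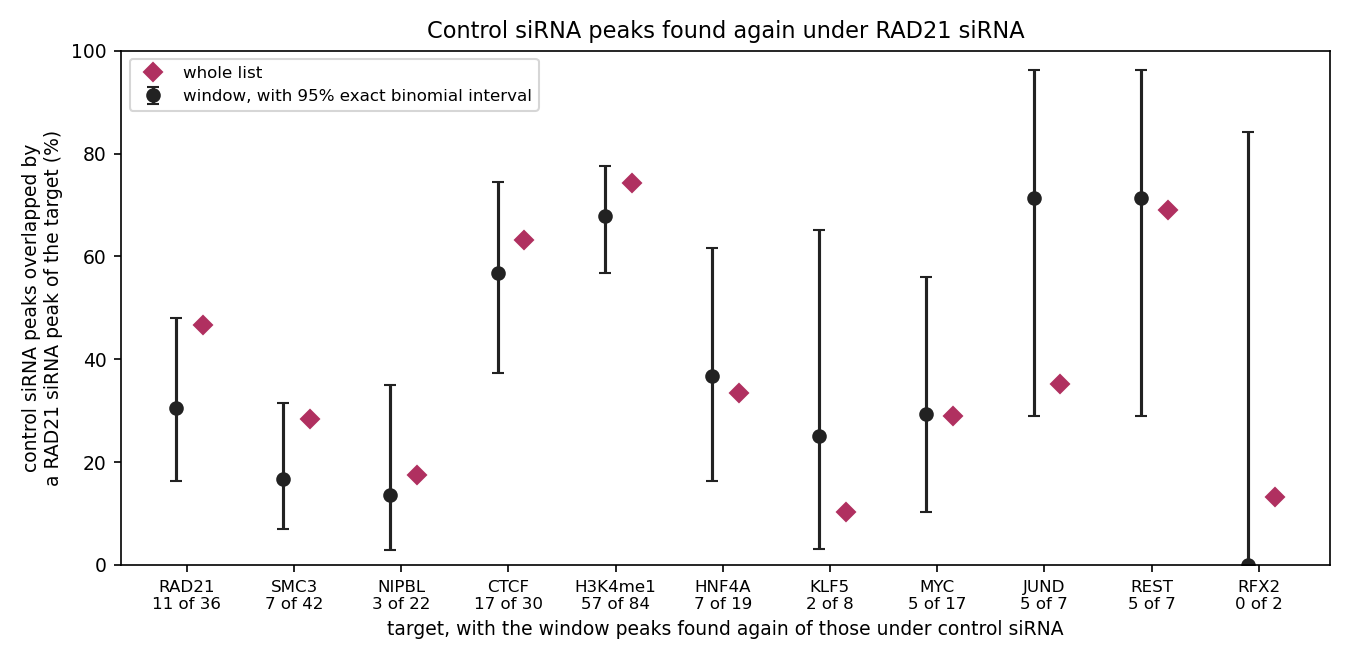
The share in percent of control siRNA peaks that a RAD21 siRNA peak of the same target overlapped is shown for the window (black, with 95% exact binomial intervals) and for the whole list (red diamonds). RAD21 stands at 30.6% against 46.6%, SMC3 at 16.7% against 28.4%, and the intervals of the targets with few peaks span most of the axis.

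JUND was alone in having more window peaks under RAD21 siRNA, 26 against 7. It was found again at 5 of 7 (71.4%, against 35.1% of its list), a share that was 28.6% with lists shortened to the same length and 0% with scores of at least 100, where 1 control siRNA peak remained. In all, 21 of the 26 had no control siRNA counterpart, close to 86.7% over the list. Of its RAD21 siRNA peaks, 21 of 26 lay on H3K4me1 (87.5% over the list). Of the 21 without a counterpart, 16 lay on H3K4me1 of the same siRNA (86.7% over the list) and 13 on H3K4me1 of control siRNA. By summit, 10 of these 21 lay before the enhancer position, 1 between enhancer and MYC and 10 after the MYC position. The 10 before include the peak at the enhancer itself, with a summit at −30 bp from its position. The 10 after include the peak over MYC, with a summit at 326 bp. All JUND peaks came to 3.05 per Mb with the control and 12.2 with the RAD21 siRNA before the enhancer, 5.97 and 5.97 between enhancer and MYC, and 1.69 and 10.1 after MYC. The strongest without a counterpart, chr8:128932522-128934126 at 116 kb, had 55 tags and a score of 189.41, and the only RAD21 peak of the window more than 1000 bp from any control siRNA RAD21 peak lay there too, with 14 tags and a score of 61.83. JUND was also the deepest RAD21 siRNA library. No peak of its whole control siRNA list had an FDR under 5%, so none in the window could, and 1 window peak had under RAD21 siRNA. With lists shortened to the same length by strength JUND had 7 and 9.

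REST, the repressor of neuronal genes, had all but 1 of its 7 control siRNA peaks beyond MYC, where all peaks of RFX2 lay too, and none of the 7 overlapped H3K4me1 (interval 0 to 41%, against 14.7% over its list). It was found again at 5 of 7 (71.4%, against 69.1% of the list), with 1 of 6 RAD21 siRNA peaks alone (34.6% over the list). The strongest REST peak of the window, chr8:129549920-129552903 at 734 kb, had 194 tags, a fold enrichment of 100.55 and a score of 2776.98, above 84.2% of its list. Its score under RAD21 siRNA was 726.23. A second strong REST peak, chr8:129225306-129227815, had scores of 2511.2 and 899.08. RFX2, a factor of ciliated cells, had 2 peaks under control siRNA, neither found again (13.2% over the list), and 1 under RAD21 siRNA without a counterpart (76.3%) at 1148 kb.

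The longest stretch without a peak of any list ran from chr8:128124200 to chr8:128243608, 119 kb, directly after the locus of 9 targets. The next were 117 kb and 100 kb long, both far beyond MYC. Over the RAD21 siRNA lists the longest was 199 kb, from chr8:129351264 to chr8:129550258. RAD21 and SMC3 together left 549 kb without a peak under RAD21 siRNA, from chr8:129184721 to chr8:129734164. The longest stretch without CTCF was 329 kb under control siRNA and 661 kb under RAD21 siRNA, both in the part beyond MYC.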

How the data were processed

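Members and lists were chosen with earlier results of these data known. CASAVA 1.4, BWA, MACS 1.4 and the hg18 build are named in the labels, per the submitters' processing notes. The authors called peaks in each library with MACS 1.4.0rc2 against IgG of the same siRNA and host, at a p cutoff of 1e-05, per the file headers. The deposited lists give, per the file headers, a start, end and summit, a count of tags, a score of −10 × log10 p, a fold enrichment (a linear ratio over background) and an unnamed last column. That column, deposited in percent, was read as the FDR, since its number of values under 5 equals the number of peaks at that FDR in the labels. All these values are the authors'. They describe and rank peaks within a list.

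All deposited peaks were used. A peak was found again when a peak of the same target under the other siRNA overlapped by 1 bp. Loci joined peaks within 1000 bp. A peak without counterpart was named as strongest only if none lay within 1000 bp. Named were the loci at MYC and the enhancer, up to 12 loci of 5 or more targets, and per target the strongest control siRNA peak and the strongest peak of each siRNA without counterpart. The overlap code was tested on simulated data (Python 3.11.15, pandas 2.3.3, scipy 1.17.1). Alternatives were FDR under 5%, scores of at least 100, equal numbers of the strongest peaks, overlap of 50% of the control siRNA peak, summits within 250 bp, and joining at 0 or 5000 bp.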

Additional observations from a re-analysis of the deposited data

How the results depend on the processing

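No paired analysis was possible because each target had 1 library per siRNA and the result comes from no test; for the same reason no replicate was left out. With equal numbers of the strongest peaks of both whole lists, 3 targets in place of 10 had fewer window peaks under RAD21 siRNA. That choice removes any difference in list length by construction. The ratio of window peaks was then 1 for RAD21, 1.57 for SMC3, 2 for MYC and 1.29 for JUND, and 0.667 between the enhancer and MYC. The share found again was 69.2% for RAD21 and 71.4% for SMC3. There were 7 shared CTCF-RAD21-SMC3 sites, 0 of them with CTCF alone, 3 loci of 5 or more targets under control siRNA, and 6 more targets at the enhancer under RAD21 siRNA. With FDR under 5%, a choice that shortened the lists unequally, the ratio was 0.226 for RAD21, 0.0625 for SMC3 and 1.12 for H3K4me1. SMC3 was found again at 6.25% and H3K4me1 at 84.5%, 2 shared sites kept all 3 proteins, loci of 5 or more targets were 9 and 0, and the difference at the enhancer was −1. With scores of at least 100 the ratio was 0.0909 for SMC3, 0.458 for CTCF and 9 for JUND, 2 sites kept all 3 proteins, loci of 5 or more targets were 5 and 0, and the difference in targets was 0 at the enhancer and −3 at MYC. With summits within 250 bp, H3K4me1 was found again at 32.1%. The cause of these shifts was not tested. RAD21 and SMC3 peaks without CTCF were found again at 0 positions under each alternative that left such peaks. Where the lists were cut, overlap with CTCF was judged on the cut CTCF list. A peak could thus count as without CTCF because its CTCF peak had been removed. These counts of 0 are therefore no separate check. The ratio of H3K4me1 covered length, 0.77, ranged from 0.748 to 0.915. With 2 to 84 peaks per target, shares in the window have wide intervals.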

Other observations

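Window peaks tended to hold many tags for their fold enrichment. Each peak was ranked in its own whole list by tags and by fold, and the median rank of the window peaks was taken for the 19 lists with 5 or more of them. The median fold percentile was below the median tag percentile in 16 of the 19 lists. For RAD21 under control siRNA the window medians were the 54.8 percentile by tags and the 19.6 percentile by fold, for SMC3 50 and 17.4, for HNF4A 71.4 and 31, and for MYC 51.8 and 19.2. CTCF had 52.5 and 50.5 under control siRNA and 42.2 and 23.6 under RAD21 siRNA, and RAD21 under RAD21 siRNA had 31.5 and 51.8. The extreme case was the RAD21 siRNA peak of JUND at MYC, above 99.6% of its list by tags and above 0.0934% of it by fold.

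The makeup of the loci is given as counts. Under control siRNA 31 of the 104 (29.8%, against 22.5% of loci genome-wide) held H3K4me1 alone, 39 (37.5%, against 28.1%) held H3K4me1 with other targets, 13 (12.5%, against 31.1%) held only members of the group RAD21, SMC3 and CTCF, and 5 (4.81%, against 2.61%) held REST alone. Of the 31 loci with H3K4me1 alone, 14 had no peak of any target under RAD21 siRNA (38.8% genome-wide) and 4 had H3K4me1 with another target (10.6%). Of the 13 loci of RAD21, SMC3 or CTCF without others, 7 had no peak under RAD21 siRNA (38.6% genome-wide) and 5 held only members of that group again (55.8%).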
